A study of Mus musculus with 4 samples.

Results

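The genes described here are 8 genes of the cytotoxic granule, the secretory lysosome with which killer lymphocytes kill a target cell: the granzyme genes Gzma, Gzmb, Gzmc and Gzmk, the perforin gene Prf1, the serglycin gene Srgn, and Nkg7 and Ctsw. They were taken by name, through the transcript accession of each probe, from a list drawn up with earlier results of these data known. The 8 genes had 9 of the 56605 non-control probes on the array, 2 of them for Ctsw, and 7 of the 8 genes were among the 20505 genes or unnamed transcripts tested. RNA came from CD4+ T cells of Irf4-/- mice (2 arrays) and of wildtype mice (2 arrays), all male and of the C57BL/6 strain. Naive cells from the spleen, positive for CD62L and without CD44, had been stimulated with an antibody to CD3e at 1 µg per ml beside mitomycin C-treated antigen-presenting cells, and living CD4+ cells were collected on day 2 according to the titles. The treatment label instead speaks of cultures of 6 or 24 hours, so the time behind the levels below is taken from the titles and is not settled. The labels speak of separate experiments, 2 for each genotype. Both genotypes shared the stimulation, the antigen-presenting cells and the second sort.

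Perforin makes pores in the membrane of the target cell, and through them granzymes, a family of serine proteases, reach its cytosol and start cell death. Serglycin is the proteoglycan that packs these proteins in the granule, and serpins in the killer cell hold back granzyme that leaks into its own cytosol. Granules are best known from CD8+ T cells and natural killer (NK) cells, but activated CD4+ T cells can also make granzymes and perforin. Irf4, the transcription factor missing from the Irf4-/- cells, is induced through the T cell receptor and binds DNA together with partners of the AP-1 and Ets families.

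The granule genes differed from one another in direction and size. Without Irf4 the signal for Nkg7 rose 7.25-fold, and Gzma was 4.57-fold lower without passing the test. The other 5 genes tested had estimated differences of less than 0.5 on the log2 scale. Their 95% intervals all reached past 0.5 in size, most widely for Gzmb (-1.95 to 2.73) and Gzmc (-1.19 to 1.32), so larger differences are not left out. Of the 7, 1 was called higher, against 0.493% of all genes tested, and 0 were called lower, against 0.244% of all (limma, adjusted p under 0.05). In either direction 0.736% of all genes tested were called. At an unadjusted p under 0.05, 1 of the 7 was higher (Nkg7) and 1 was lower (Gzma), against 6.35% and 5.01% of all genes tested. Both Irf4-/- arrays lay above both wild-type arrays for 2 of the 7 (17.9% of all genes tested) and below them for 2 (21.3% of all), and in 3 the groups overlapped. The groups were thus apart in 57.1% of the 7 and in 39.2% of all genes tested. The median difference of the 7 was 0.13, and that of all genes tested was -0.02. Levels are given as log2 of the background-subtracted signal minus the 75th percentile of the array, differences are Irf4-/- minus wild type with limma's standard error (SE), and n is 2 arrays per genotype throughout.

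**Figure D1:**
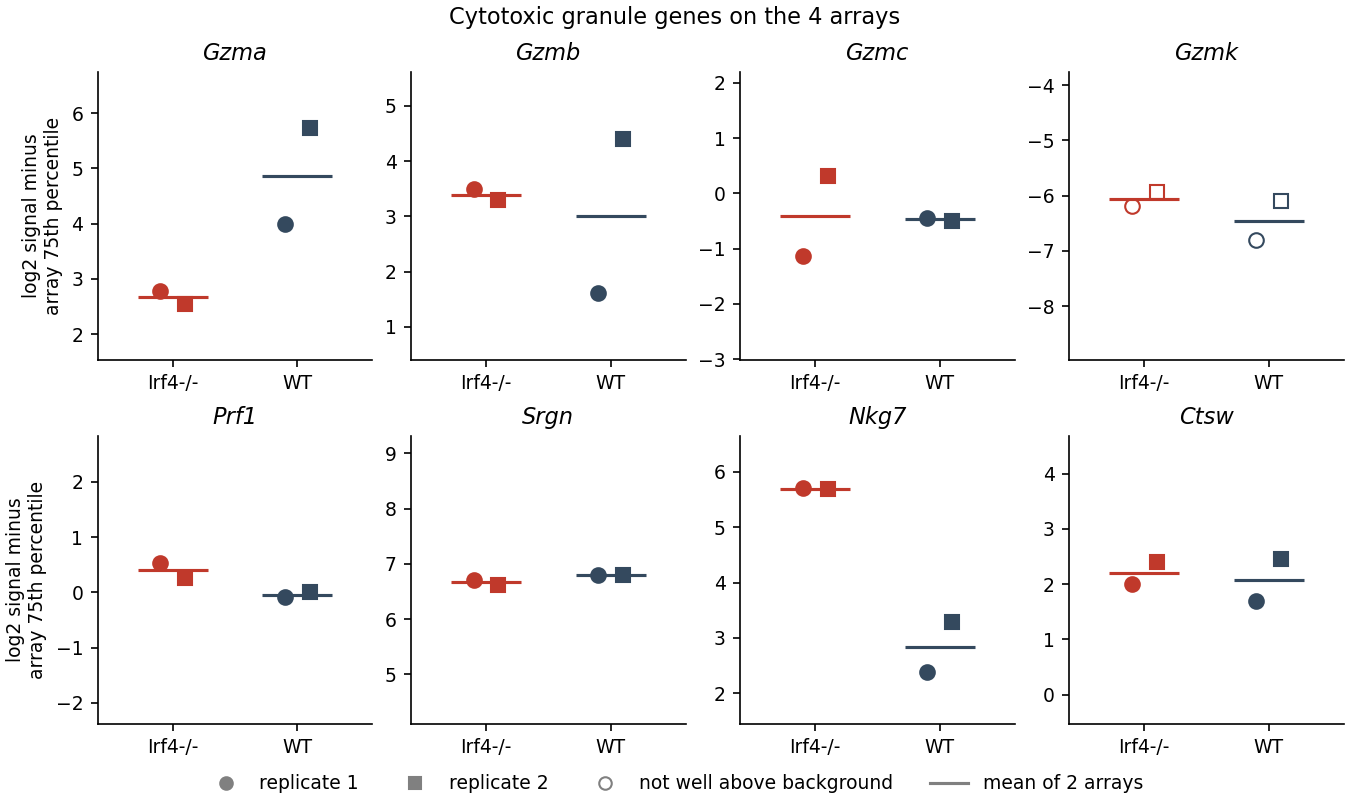
Level of each of the 8 genes on the 4 arrays (y axis: log2 signal minus the 75th percentile of the array, each panel spanning the same number of log2 units; x axis: genotype). Points are arrays, bars the mean of 2 arrays, and open points were not well above background. The Nkg7 points of Irf4-/- cells, at 5.70 and 5.69, lie above both wild-type points, and the wild-type points of Gzma and Gzmb lie far apart.

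The arrays detected between 25677 and 28725 probes each. The brighter of the 2 probes for the Irf4 gene itself read 4.23 and 4.04 in Irf4-/- cells, against 5.03 and 4.74 in wild-type cells, a difference of -0.75 ± 0.20 (SE) that missed the threshold (limma, adjusted p = 0.231). The other Irf4 probe, also well above background on all 4 arrays, differed by -0.37. The labels do not say whether either probe lies within the deleted sequence, so these readings check nothing about the knockout. Cd4 was well above background on every array, at 5.82 and 5.75 in Irf4-/- cells and 5.83 and 5.51 in wild-type cells. All 9 T cell markers of its list, Cd4 included, were also well above background on every array. All arrays lay on 1 slide, replicate 1 of both genotypes in row 1 and replicate 2 in row 2. The wild-type arrays lay in column 1 and the Irf4-/- arrays in columns 3 and 2, so slide column and genotype cannot be told apart.

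Nkg7 encodes a membrane protein of cytotoxic granules that takes part in their release. It read 5.70 and 5.69 in Irf4-/- cells, against 2.39 and 3.29 in wild-type cells. Both Irf4-/- arrays were high and almost equal, the wild-type arrays were lower and farther apart, and the groups did not overlap. In processed signal these are 15510 and 15670 units on the Irf4-/- arrays and 1769 and 2994 units on the wild-type arrays. The means were 5.70 ± 0.013 (SD) in Irf4-/- cells and 2.84 ± 0.64 in wild-type cells, a difference of 2.86 ± 0.33 (SE) with a 95% interval of 2.01 to 3.71 (limma, adjusted p = 0.0494). In size this difference ranked 116 among the 20505 tested. Within slide row 1 the signal was 9.96-fold higher and within row 2 it was 5.27-fold higher. The call was lost with quantile normalization (adjusted p = 0.116), with the percentile taken over detected probes (0.118), with no filter on background (0.492), with slide row as a replicate block (0.119), and without wild-type replicate 1 (0.0995) or 2 (0.0922), while the difference stayed between 2.41 and 3.31 in all 14 alternatives. In RNA from bulk cells, more cells that make Nkg7 and more Nkg7 RNA per cell cannot be told apart.

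The promoter window of Nkg7 is shown because this was the member gene that passed the test. RefSeq's promoter table (build GRCm38.p6) holds 8 windows for 7 of the 8 genes, each from 250 bases before to 50 after a start site, and Ctsw is not among them. Each window was searched on both strands for 5 motifs: the interferon-stimulated response element (ISRE), the Ets-IRF composite element (EICE), the AP-1-IRF composite element (AICE) in a spaced and an adjacent form, and the AP-1 site TGANTCA, which both AICE forms contain. Capitals mark matches, and the Nkg7 window has none.
Nkg7, chr7:43436888-43437187, plus strand: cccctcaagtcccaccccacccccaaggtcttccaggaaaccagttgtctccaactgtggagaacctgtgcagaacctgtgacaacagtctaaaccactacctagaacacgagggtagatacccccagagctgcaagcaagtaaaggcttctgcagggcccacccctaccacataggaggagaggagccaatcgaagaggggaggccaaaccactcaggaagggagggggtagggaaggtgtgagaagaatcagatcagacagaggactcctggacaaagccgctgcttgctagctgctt
Over all 32851 windows of the table, 3.44% held the interferon-stimulated response element, 2.72% the Ets-IRF element, 0.119% and 0.125% the AP-1-IRF forms and 7.81% the AP-1 site. Of the 8 windows of granule genes, 2 held the first (Gzma and 1 of the 2 Srgn windows), 1 held the AP-1 site (Gzmb), and none held a composite element. A match describes the letters and does not show binding.

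Gzma encodes granzyme A, a protease that cuts after lysine or arginine. It read 2.78 and 2.55 in Irf4-/- cells, against 3.997 and 5.72 in wild-type cells. Both Irf4-/- arrays were below both wild-type arrays, and wild-type replicate 2 was well above wild-type replicate 1. The means were 2.67 ± 0.16 (SD) and 4.86 ± 1.22, a difference of -2.19 ± 0.58 (SE) with a 95% interval of -3.68 to -0.70, which did not pass over all genes (limma, adjusted p = 0.230). The difference was -1.22 within slide row 1 and -3.17 within row 2. Without wild-type replicate 2 it was -1.33 (adjusted p = 0.257) and without wild-type replicate 1 it was -3.06 (adjusted p = 0.0929). It passed with normexp background correction (-2.15, adjusted p = 0.00542), and under median scaling, where the difference was -2.30. Under median scaling every gene named here was given the same SE of 0.358, so that call does not reflect the spread of Gzma's own arrays. The Gzma window, shown beside that of Nkg7 because Gzma differed in the other direction, holds 1 match to the interferon-stimulated response element on the opposite strand, starting 97 bases before the start site.
Gzma, chr13:113100932-113101231, minus strand: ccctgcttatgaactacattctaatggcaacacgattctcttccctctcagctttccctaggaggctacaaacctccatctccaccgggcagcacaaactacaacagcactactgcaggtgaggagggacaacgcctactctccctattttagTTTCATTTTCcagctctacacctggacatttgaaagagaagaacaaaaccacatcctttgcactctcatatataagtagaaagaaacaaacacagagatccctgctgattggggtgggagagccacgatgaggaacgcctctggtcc

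Gzmb encodes granzyme B, which cuts after aspartate and activates caspases in the target cell. It read 3.49 and 3.30 in Irf4-/- cells, against 1.61 and 4.41 in wild-type cells. The Irf4-/- arrays lay between the wild-type arrays. The gap between the wild-type arrays, 6.97-fold, was matched or exceeded by 0.0634% of the genes tested, while the Irf4-/- arrays differed by 1.15-fold. The difference between genotypes was 0.39 ± 0.91 (SE), with a 95% interval of -1.95 to 2.73 (limma, adjusted p = 0.965). It was 1.89 within slide row 1 and -1.11 within row 2, and without wild-type replicate 1 it turned to -1.01 (adjusted p = 0.330). Its window, shown for comparison with that of Gzma, the other granzyme gene with a wide gap between wild-type arrays, has 1 AP-1 match, starting 58 bases before the start site.
Gzmb, chr14:56262285-56262584, minus strand: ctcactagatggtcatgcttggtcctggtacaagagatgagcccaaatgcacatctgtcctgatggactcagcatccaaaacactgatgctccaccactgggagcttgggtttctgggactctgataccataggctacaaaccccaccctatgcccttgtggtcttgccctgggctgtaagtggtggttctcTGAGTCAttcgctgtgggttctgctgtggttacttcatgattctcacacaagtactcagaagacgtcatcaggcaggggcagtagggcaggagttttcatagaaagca

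Gzmc, encoding granzyme C, lies beside Gzmb on chromosome 14 in a run of related granzyme genes (Gzme, Gzmd, Gzmg, Gzmn, Gzmf, Gzmc and Gzmb in chromosome order). It read -1.13 and 0.31 in Irf4-/- cells, against -0.45 and -0.49 in wild-type cells. Here the Irf4-/- arrays were the pair that lay apart, on either side of the wild-type arrays. The difference was 0.06 ± 0.49 (SE), with a 95% interval of -1.19 to 1.32 (limma, adjusted p = 0.994). Its sign turned without Irf4-/- replicate 2 (-0.66) and with median scaling (-0.045). Since these genes are close copies and the probe sequences were not used here, part of the Gzmc signal could come from a neighbour, although Gzmd, Gzme, Gzmf and Gzmn were not well above background on any array and Gzmg on 1 wild-type array only.

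Gzmk, encoding granzyme K, lies next to Gzma on chromosome 13. It read -6.20 and -5.94 in Irf4-/- cells and -6.80 and -6.11 in wild-type cells, not well above background on any of the 4 arrays, and was therefore not tested. Of the whole granzyme family of 10 genes, 5 were not well above background on any array and 4 were tested, none of which passed in either direction. The tested gene outside the 8 was Gzmm, encoding granzyme M, with -3.09 and -2.47 in Irf4-/- cells and -2.25 and -1.84 in wild-type cells, a difference of -0.74 ± 0.29 (SE, limma, adjusted p = 0.441). The median difference of the 4 was -0.34.

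Prf1, encoding perforin, read 0.54 and 0.26 in Irf4-/- cells, against -0.09 and 0.01 in wild-type cells. Both Irf4-/- arrays were above both wild-type arrays by a small margin. The difference was 0.44 ± 0.19 (SE), or 1.36-fold, with a 95% interval of -0.04 to 0.93, and did not pass (limma, adjusted p = 0.496). It was 0.63 within slide row 1 and 0.26 within row 2.

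Srgn, encoding serglycin, read 6.71 and 6.62 in Irf4-/- cells, against 6.79 and 6.80 in wild-type cells. The Irf4-/- arrays were lower, and all 4 lay close together. The difference was -0.13 ± 0.17 (SE), with a 95% interval of -0.56 to 0.30 (limma, adjusted p = 0.915), an interval that leaves out changes of the size seen for Nkg7 and Gzma.

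Ctsw encodes cathepsin W, a papain-like protease found mainly in CD8+ T and NK cells. Its brighter probe read 2.01 and 2.39 in Irf4-/- cells, against 1.70 and 2.45 in wild-type cells, so the groups overlapped. The difference was 0.13 ± 0.31 (SE), with a 95% interval of -0.68 to 0.93 (limma, adjusted p = 0.968). The other Ctsw probe read 0.76 and 1.1 in Irf4-/- cells and 0.42 and 1.07 in wild-type cells, a difference of 0.18. Both probes were higher on replicate 2 than on replicate 1 in each genotype, and without wild-type replicate 1 the difference of the brighter probe turned to -0.25.

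**Figure D2:**
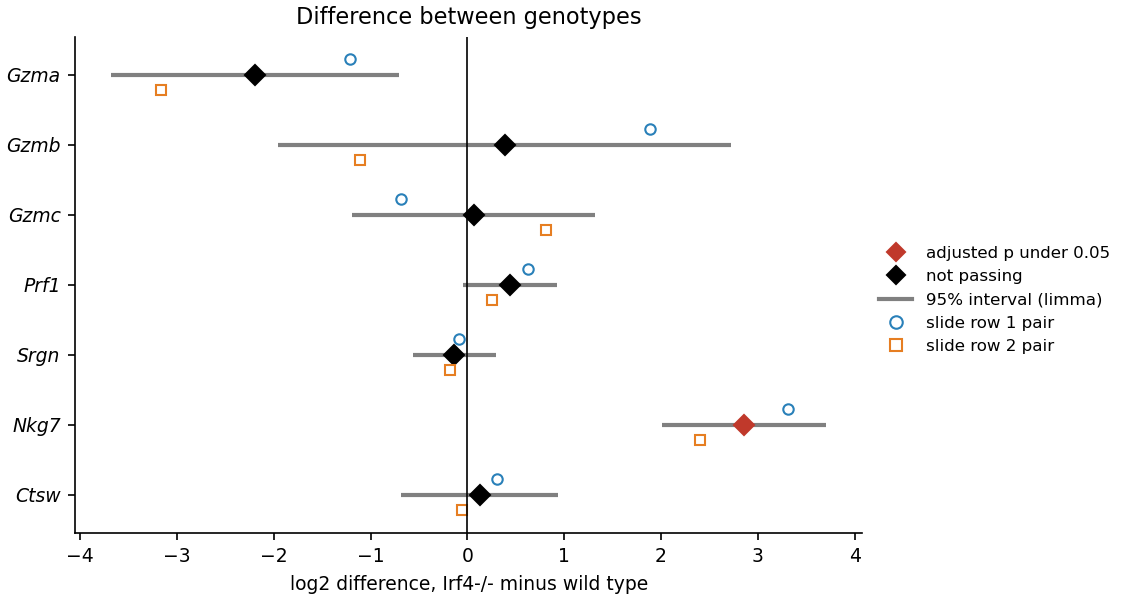
Difference between genotypes for the 7 genes tested (x axis: log2 difference, Irf4-/- minus wild type). Diamonds are the limma estimates with 95% intervals, and open symbols are the differences within each slide row. Nkg7, at 2.86, is the red diamond that passed, and the row values of Gzmb, 1.89 and -1.11, lie on opposite sides of 0.

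The genes whose 4-array pattern lay nearest to Nkg7 and Gzma were sought among 12029 named genes above background on every array, by the Euclidean distance between profiles centred on each gene's mean. Nearest to Nkg7 were Asb2, a ubiquitin ligase subunit gene, at a distance of 0.39, Neurl3 at 0.41 and Plac8 at 0.46. Asb2 read 1.89 and 2.08 in Irf4-/- cells and -1.53 and -0.86 in wild-type cells. Nearest to Gzma were Ctla2a at 0.32, Ndrg1 at 0.41 and Ctla2b at 0.44. The protein products of Ctla2a and Ctla2b resemble the inhibitory propeptide of cathepsins. Ctla2a read 1.5 and 0.87 in Irf4-/- cells, against 2.34 and 4.24 in wild-type cells, and like Gzma it was highest on wild-type replicate 2. With 4 arrays such a likeness describes these arrays alone, and Ctla2a and Ctla2b are close copies whose probes could share signal.

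**Figure D3:**
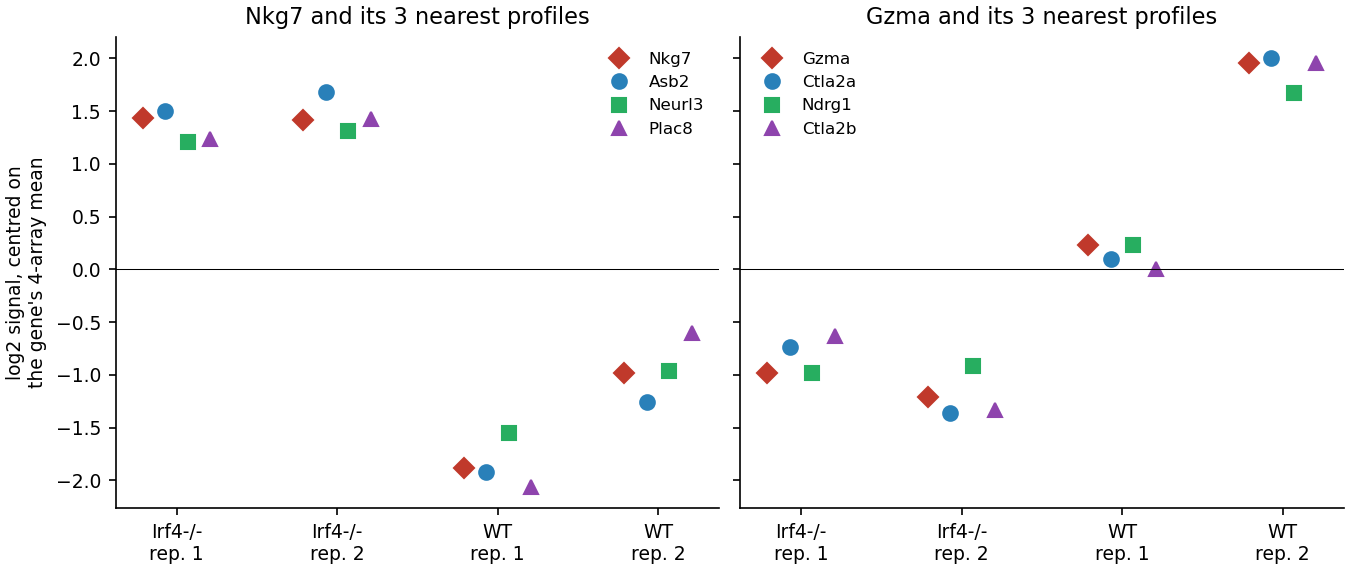
Signal of Nkg7 (left) and Gzma (right) with the 3 genes of nearest profile, on the 4 arrays (y axis: log2 signal centred on the gene's 4-array mean; x axis: array). Points are single arrays, and genes are set side by side within an array. The Gzma group sits highest on wild-type replicate 2, and Ctla2a, at a distance of 0.32, is the nearest to Gzma.

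Genes that control or release the granule's contents were compared in the same fit. The counts of calls in this and the following lists stand beside 0.493% of all genes tested called higher and 0.244% called lower. The lists were chosen with earlier results of these data known. Among the granule protease inhibitors the 3 genes with the widest differences were all higher without Irf4, and 1 passed. Serpinb6b, a serpin gene, rose 3.71-fold, with 5.04 and 4.80 in Irf4-/- cells against 2.88 and 3.18 in wild-type cells (limma, adjusted p = 0.0443). Serpinb9, the mouse inhibitor of granzyme B, read 3.50 and 3.22 in Irf4-/- cells against 1.75 and 1.47 in wild-type cells, a difference of 1.76 ± 0.21 (SE) just short of the threshold (adjusted p = 0.0510). Serpinb6a read 3.95 and 3.91 in Irf4-/- cells against 2.11 and 2.54 in wild-type cells (difference 1.61, adjusted p = 0.0615). In all 3 the groups lay apart. These 3 genes belong to the Serpinb cluster near Irf4, whose direct neighbours are Dusp22 and Exoc2. For these 3 serpin genes, an effect of the altered locus on genes near it and the loss of Irf4 itself cannot be told apart. The other Serpinb genes of the list were not raised in this way. Serpinb1a differed by -0.24 with overlapping groups (limma, adjusted p = 0.978), and Serpinb9b was not well above background on any array. Of the 5 tested genes of this list 1 rose, none fell and 4 did not pass, with a median difference of 1.61. The summed signal of the list, in multiples of the array's 75th percentile, was 54.7 to 61.9 in Irf4-/- cells and 18 to 20.3 in wild-type cells, and Serpina3g was not analysed here.

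Most genes of granule maturation and secretion differed little. Of 14 maturation genes tested, Ctsl, encoding the lysosomal protease cathepsin L, rose 5.44-fold, with 2.10 and 2.36 in Irf4-/- cells against -0.33 and -0.10 in wild-type cells (limma, adjusted p = 0.0318). The other 13 did not pass, among them Gnptab, needed for mannose 6-phosphate sorting of lysosomal enzymes (-0.70, adjusted p = 0.279). Ctsh, encoding cathepsin H, read 0.12 and -0.14 in Irf4-/- cells against -0.35 and -1.81 in wild-type cells (difference 1.07, adjusted p = 0.554), which became 1.80 when wild-type replicate 1 was left out and 0.34 when replicate 2 was. Of 16 secretion genes tested, Ap3b1, a subunit of the AP-3 adaptor that sorts cargo to lysosome-related organelles, rose 3.55-fold, with 6.58 and 6.76 in Irf4-/- cells against 4.85 and 4.83 in wild-type cells (adjusted p = 0.0383). The other 15 did not pass, among them the granule fusion gene Stx11 (-0.61, adjusted p = 0.293) and the lysosome trafficking gene Lyst (-0.47, adjusted p = 0.668). The medians were -0.01 for maturation and -0.06 for secretion.

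Death ligands, the granule-independent way of killing, had differences of both signs. Of 5 tested, Tnfsf10, encoding TRAIL, rose 4.45-fold (limma, adjusted p = 0.0456), and 4 did not pass. Lta read 3.56 and 3.87 in Irf4-/- cells against 2.74 and 1.86 in wild-type cells (difference 1.41, adjusted p = 0.195), and Tnf differed by -0.63 (adjusted p = 0.441). The median of the 5 was 0.57.

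Transcription factors of the cytotoxic programme were read next. Of 16 tested, 12 had negative and 4 positive differences, while 46.7% of all genes tested had positive ones. In the list 1 rose, none fell and 15 did not pass, with a median of -0.48. The list mixes factors of different roles, Klf2 among them, so neither the count nor the median measures the cytotoxic programme. The gene that rose was Zeb2, a zinc finger factor of effector lymphocytes, 4.83-fold higher (limma, adjusted p = 0.0318). It was well above background on both Irf4-/- arrays and on 1 of 2 wild-type arrays. Zeb2 thus entered the test through the Irf4-/- arrays alone, where it was the brighter. With normexp background correction the difference of Zeb2 was 0.88 in place of 2.27 and still passed (adjusted p = 0.00620). The T-box factors had differences of opposite sign, neither past the test. Eomes read 2.77 and 1.98 in Irf4-/- cells against 1.40 and 0.47 in wild-type cells (difference 1.44, adjusted p = 0.280), and Tbx21, encoding T-bet, read 3.72 and 3.75 in Irf4-/- cells against 4.58 and 4.80 in wild-type cells (difference -0.96, adjusted p = 0.117). Prdm1, encoding Blimp-1, read -3.03 and -2.83 in Irf4-/- cells against -2.30 and 0.20 in wild-type cells (difference -1.88, adjusted p = 0.506). Leaving out wild-type replicate 1 gave -3.13, and leaving out replicate 2 gave -0.63. As for Gzma and Gzmb, wild-type replicate 2 was the highest array for Prdm1. Klf2, a factor of quiescent T cells, differed by -1.23 (adjusted p = 0.227).

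Receptors for the cytokines that induce granzymes showed no call among 9 tested in either direction, with a median of -0.10. Il18r1, a chain of the interleukin 18 receptor, read -0.11 and 0.56 in Irf4-/- cells against -2.87 and -1.58 in wild-type cells (difference 2.45, limma, adjusted p = 0.136). Il2rb, the chain shared by the receptors for interleukins 2 and 15, read 5.83 and 6.06 in Irf4-/- cells against 6.71 and 6.82 in wild-type cells (difference -0.83, adjusted p = 0.169).

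Among chemokines and surface receptors typical of cytotoxic lymphocytes, 3 genes were called. Of 10 tested, Crtam (13.1-fold, limma, adjusted p = 0.0309), Cd160 (10.7-fold, adjusted p = 0.0395) and the chemokine gene Xcl1 rose, none fell, and 7 did not pass, with a median of 0.83. Xcl1 was well above background on both Irf4-/- arrays and on neither wild-type array, so it entered the test through the Irf4-/- arrays alone. Its mean levels were -0.87 and -6.30, and the fitted difference passed (limma, adjusted p = 0.0293). Xcl1 was at least 11.9-fold higher in Irf4-/- cells. Such a lower bound compares the mean of the brighter genotype with the lowest signal called well above background on each dimmer array. Where the probe's own signal is higher, that is used instead. The bound is not strict, since some probes above that lowest signal were not called well above background. It holds for the processed signal alone. With normexp background correction, the log2 differences were 1.62 for Xcl1 in place of 5.43, 2.02 for Crtam in place of 3.71 and 1.999 for Cd160 in place of 3.42. All 3 still passed (adjusted p = 0.000261, 3.01e-05 and 3.19e-05). Slamf7, a receptor of the SLAM family, had the opposite sign, with -1.49 and -1.96 in Irf4-/- cells against -0.21 and 0.67 in wild-type cells (difference -1.95, adjusted p = 0.116).

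**Figure D4:**
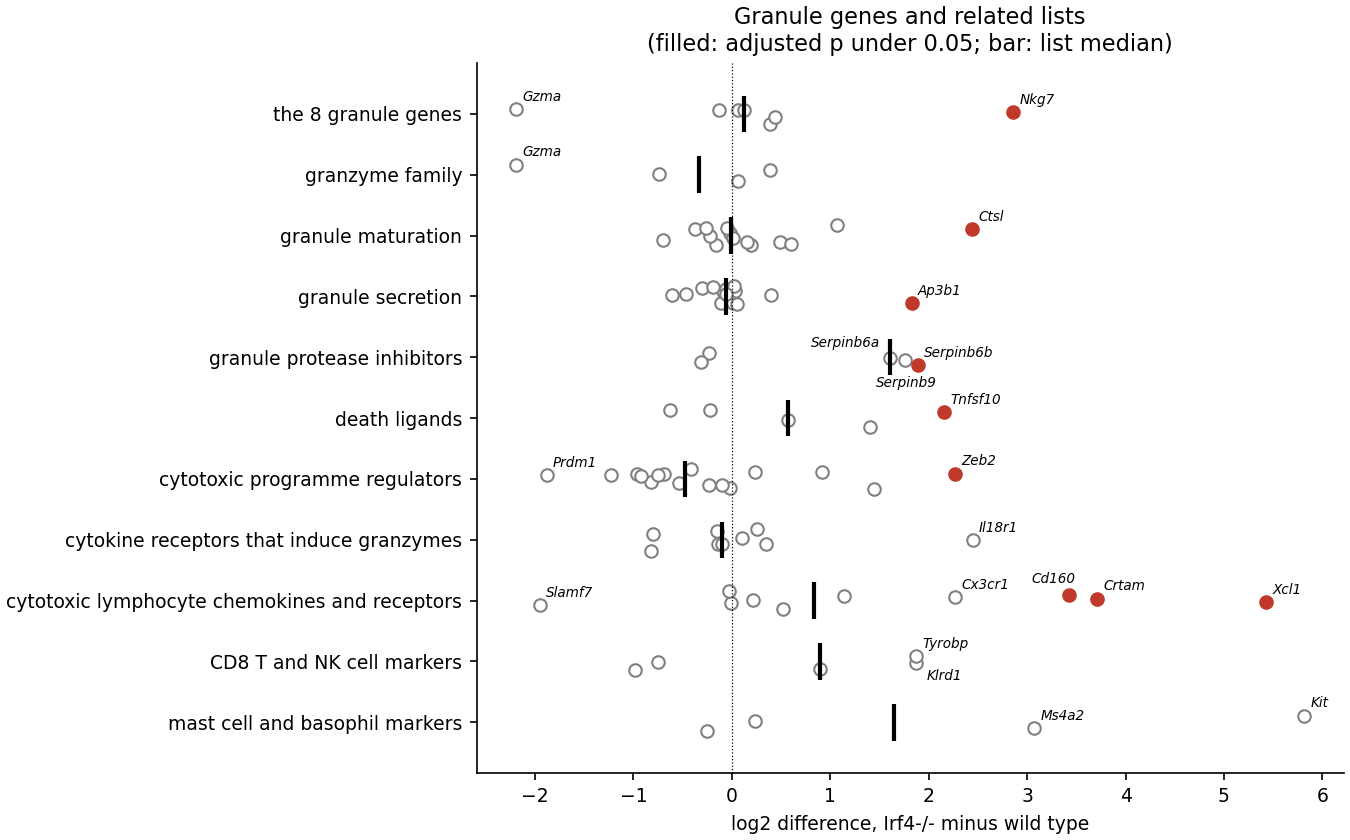
Difference between genotypes for each tested gene of the 8 granule genes and of the related lists (x axis: log2 difference, Irf4-/- minus wild type; rows: lists). Filled points passed at an adjusted p under 0.05, bars are list medians, vertical spread within a row has no meaning, and Xcl1, Cx3cr1, Kit and Ms4a2 are plotted at fitted values although they were not well above background in wild-type cells. All filled points lie to the right of 0, and the serpin list has its median at 1.61.

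Nkg7 is also made by NK and CD8+ T cells, so markers of those cells were read beside it. Of 12 listed, 11 were on the array, 5 were tested and none passed in either direction. The NK receptor gene Ncr1, with Klrc1 and Klra4, was not well above background on any array, and Cd8a was above it on 1 of 2 arrays in each genotype. Klrd1, encoding CD94, read 1.52 and 1.86 in Irf4-/- cells against -0.73 and 0.37 in wild-type cells (difference 1.87, limma, adjusted p = 0.157). Tyrobp, a signalling adaptor of NK and myeloid cells, read -0.78 and -0.47 in Irf4-/- cells against -2.23 and -2.76 in wild-type cells (difference 1.87, adjusted p = 0.0650). Cd8b1 had the opposite sign, with 2.23 and 2.14 in Irf4-/- cells against 3.12 and 3.21 in wild-type cells (difference -0.98, adjusted p = 0.0979). The summed signal of the list was 10.6 to 10.7 in Irf4-/- cells and 12.3 to 13.8 in wild-type cells, in multiples of the 75th percentile. Cd8b1 was the brightest gene of the list on every array and weighed most in that sum. Of the 5 tested, 3 had positive and 2 negative differences, with a median of 0.90, so the sum does not stand for the whole list. The part of such cells in the Nkg7 difference was not tested. B cell markers (7 tested) and myeloid markers (2 of 8 tested, 5 not above background on any array) gave no call in either direction. Of the B cell markers 6 had positive and 1 negative differences, with a median of 0.68. The 2 myeloid markers had 1 of each sign, with a median of -0.15. Summed signals of the B cell list were 4.94 and 1.91 on Irf4-/- replicates 1 and 2 and 2.64 and 1.30 on the wild-type ones. Those of the myeloid list were 9.83 to 10.6 in Irf4-/- cells and 11.3 to 12.2 in wild-type cells.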

How the data were processed

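Per the labels' protocols, Cy3-labelled cRNA from 4 samples was hybridised to one-colour Agilent arrays. Per the file headers, the authors read each spot's intensity, background subtracted, with Feature Extraction 11.0.1.1; the submitters' processing notes name version 9.1. A deposited log2 table matched the scanner values centred on each probe's mean (r = 1 for every array), with column medians between -0.17 and 0.12, so it served for differences only. Log2 processed signals were scaled to each array's 75th percentile. Control and flagged spots were left out, and a gene was its brightest probe. Through accessions, 32994 of 56605 probes were given 22911 symbols from RefSeq (GRCm38.p6; the array design is older, so the only coordinates given are those of RefSeq's promoter windows). Genes above background on both arrays of a genotype were fitted with limma 3.58.1 in R 4.3.3 (lmFit, eBayes). The p-values were adjusted over all 20505 by Benjamini-Hochberg and called under 0.05. The fit was tested on simulated data with planted changes larger than any difference of the granule genes. That test does not show how the fit behaves at their sizes. Arrays are few, which limits precision. Members and lists were chosen with earlier results of these data known. Named genes are the 8, Irf4, Cd4, each list's calls and up to 4 of its largest differences that did not pass, and the 3 nearest profiles. The files hold no spot means, so normexp used spot medians.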

Additional observations from a re-analysis of the deposited data

How the results depend on the processing

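The count over all genes depended on the processing: against 151 calls (101 higher, 50 lower), limma made 760 with normexp, 1 with quantile normalization (0 higher, 1 lower), 1042 with median scaling, 267 with every probe tested, 797 with trend and robust settings and 260 from the deposited table. It made 0 with the percentile over detected probes (2336 at an unadjusted p under 0.05), with no filter (2099) and with slide row, equal to replicate number, as a replicate block (3195), and 0 to 487 when 1 array was left out. Median scaling moved the median difference of all genes to -0.13 from -0.02, and testing with no filter moved it to 0.12. The count of granule genes called higher was 0 instead of 1 with quantile normalization, detected probes, no filter and the replicate block, and 0 to 1 when 1 array was left out (0 without either wild-type array). The count called lower was 1 instead of 0 with normexp and median scaling. Leaving out 1 array moved Gzmb between -1.01 and 1.79, Gzmc between -0.66 and 0.79, Ctsw between -0.25 and 0.50 and Cd4 between -0.044 and 0.27, and median scaling turned Gzmc to -0.045. The cause of these changes was not tested. Deviations of same-numbered arrays correlated at r = 0.348 over genes, but nothing in the labels pairs the arrays. The 8 related genes called were Ctsl, Ap3b1, Serpinb6b, Tnfsf10, Zeb2, Xcl1, Crtam and Cd160. They kept their direction in all 14 alternatives run (13 for Zeb2 and Xcl1). All 8 had groups that lay apart, so leaving out 1 array could not turn their direction. These genes were also picked for passing the main fit, and Zeb2 and Xcl1 entered it through the Irf4-/- arrays alone. Their kept direction is therefore no separate evidence for the calls. The 8 passed in 7 or 8 of the alternatives, among them median scaling. That setting gave every gene named the same SE and so does not reflect a gene's own spread. Sizes did change. With normexp the log2 differences were smaller for Xcl1, Crtam, Cd160 and Zeb2, and for Tyrobp (0.82 in place of 1.87). Leaving out 1 array moved Il18r1 between 1.80 and 3.09 and Plac8 between 1.94 and 3.39. It moved Ctla2a between -3.05 and -1.15 and Ndrg1 between -2.62 and -1.19.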

Other observations

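Among 8 mast cell and basophil markers, cells that also make granule proteases, 7 were on the array and 4 were tested, and none passed in either direction. Cpa3, Mcpt8 and Mcpt4, which encode mast cell and basophil proteases, were not well above background on any array. Kit, the stem cell factor receptor gene, read -1.62 and 0.44 in Irf4-/- cells. In wild-type cells it read -6.50 and -6.32, not well above background. It was at least 14.4-fold higher in Irf4-/- cells, and its fitted log2 difference just missed the threshold (limma, adjusted p = 0.0505). With normexp background correction its log2 difference was 1.86 (adjusted p = 0.00637) in place of 5.82. Ms4a2, a chain of the IgE receptor, read -3.67 and -2.68 in Irf4-/- cells against -6.10 and -6.40 in wild-type cells, where it was not well above background, and was at least 2.41-fold higher in Irf4-/- cells (limma, adjusted p = 0.0533), while normexp gave a log2 difference of 0.40 (adjusted p = 0.312) in place of 3.07. The summed signal of the list was 1.99 to 2.55 in Irf4-/- cells and 1.06 to 1.22 in wild-type cells, in multiples of the 75th percentile. Cx3cr1, a chemokine receptor gene of cytotoxic effector cells, was likewise above background in Irf4-/- cells alone. It read -3.30 and -2.96 there against -5.04 and -5.76 in wild-type cells, and was at least 2.49-fold higher. Its fitted difference did not pass (limma, adjusted p = 0.0622). With normexp its log2 difference was 0.16 (adjusted p = 0.874) in place of 2.27, and its other probe, not well above background on any array, differed by 0.024. These lower bounds are set by the lowest signal called well above background and are not strict. They hold for the processed signal and not under normexp. The p-values belong to the fitted differences and not to the bounds. Kit, Ms4a2 and Cx3cr1 entered the test through the Irf4-/- arrays alone.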
